A study of Homo sapiens with 15 samples.

Results

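NTERA2 cells come from a human testicular germ cell tumour and are an established embryonal carcinoma line in which many genes of pluripotent cells stay active. IQGAP3, a large scaffold protein, is a member of the IQGAP family. Proteins of that family bind calmodulin and the small GTPases CDC42 and RAC1, hold kinases of the ERK cascade together, and act at the cell cortex and in cell division, and IQGAP3 is best known from proliferating and stem-like cells. The comparison described here sets 3 libraries of NTERA2 cells that received an siRNA against IQGAP3 (siIQGAP3) against 3 libraries of the same line that received a control siRNA (siControl), which are 6 of the 15 libraries of a series that also knocked down SRF, IGF2BP1 and FOXM1. The series asks how the RNA-binding protein IGF2BP1 acts on IQGAP3 and on stem cell properties. In both groups the cells grew in DMEM with 10% FBS and were given siRNA 2 times in a 7-day course, and total RNA was sequenced as 100 bp read pairs on a DNBSEQ instrument. The labels record a single cell line, name no second siRNA against IQGAP3 and do not say whether the 3 libraries of a group began as separate cultures, so each p-value below rests on the spread between libraries, and that spread may be technical. Libraries are numbered by the position of their column only so that they can be named.

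The 6 libraries held 35275570 to 44996064 counts over 28207 deposited gene symbols, and 18760 genes had enough counts to be tested. Levels are given as CPM, the counts of a gene scaled to a common library total, with TMM scaling between libraries. Genes were sorted by how the 3 siControl libraries stood to each other. In 9985 genes the 3 siControl libraries agreed, lying within a factor of 2 of each other (a span of at most 1 in log2 CPM). In 4390 genes siControl library 3 lay more than a factor of 2 from both other siControl libraries and within a factor of 2 of the range of the siIQGAP3 libraries, whose mean was displaced the same way by more than a factor of 2. The remaining 4385 genes fell in neither class. The second class is defined with siIQGAP3 values, so its genes are described singly without a test, though counts of calls over all genes and over the lists take them in.

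The reason for this sorting is the third siControl library, which stood apart before any gene was considered singly. The median difference between siControl libraries 1 and 2 over all tested genes was 0.177 in log2 CPM. Between these and siControl library 3 it was 0.739 and 0.861, while between siControl library 3 and the siIQGAP3 libraries it was 0.396 to 0.412. The siIQGAP3 libraries lay close together, at 0.0720 to 0.101. By share of genes, 38.5% and 44.3% were more than a factor of 2 apart between siControl library 3 and the other siControl libraries, and 19.6% to 19.7% between siControl library 3 and siIQGAP3. Changes below are given for all 3 siControl libraries. A gene outside the second class whose call is given below also passed in the same direction against siControl library 3 alone unless the text says otherwise. In the contrast with siControl library 3 alone, that library is assumed to vary like the other groups.

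**Figure D1:**
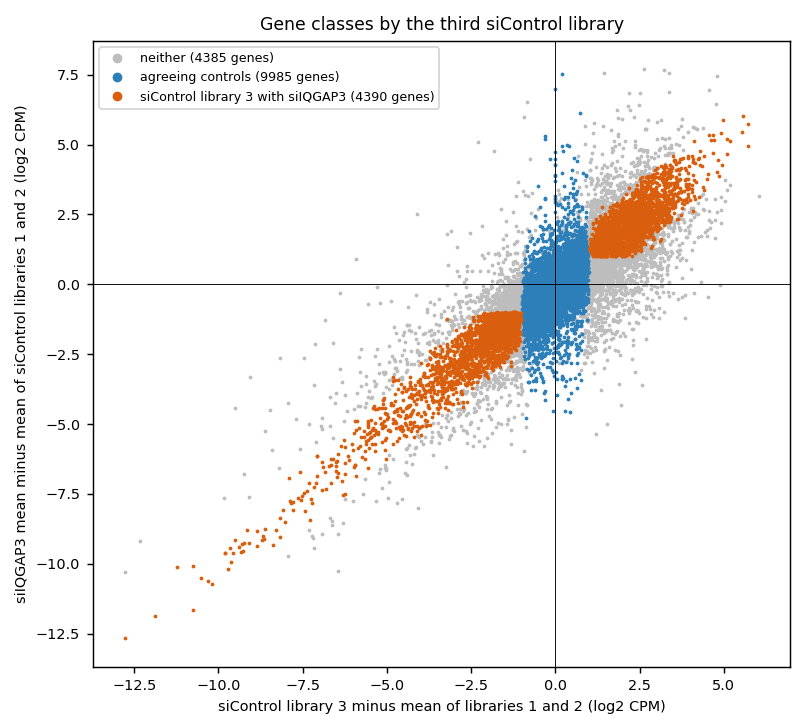
Each point is 1 of 18760 tested genes, placed by the log2 CPM difference of siControl library 3 (horizontal axis) and of the siIQGAP3 mean (vertical axis) from the mean of siControl libraries 1 and 2, which both axes share. The 9985 agreeing-control genes form the vertical band at the centre, the 4390 genes in which siControl library 3 lay with siIQGAP3 lie along the diagonal, and 4385 genes fall in neither class.

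The labelled cell type was checked against markers. All 11 embryonal carcinoma markers (POU5F1, SOX2, NANOG, LIN28A, LIN28B, DPPA4, TDGF1, PRDM14, SALL4, L1TD1 and DNMT3B) were at 1 CPM or more in every library, with summed levels of 1801, 1492 and 2948 CPM in siControl and 3637 to 3664 CPM in siIQGAP3. The sum hides members that moved apart. POU5F1 (711 to 906 CPM in siControl, 57.9 to 60.8 CPM in siIQGAP3) and NANOG (69.5 to 100.2 and 7.87 to 8.08 CPM) were lower in siIQGAP3. The others were higher there than in siControl libraries 1 and 2, LIN28A the most abundant, at 221 to 658 CPM in siControl and 1499 to 1550 CPM in siIQGAP3. Markers of other cell types also moved with the libraries. The 9 fibroblast and mesenchyme markers summed to 8340, 9722 and 2028 CPM in siControl and 2811 to 2845 CPM in siIQGAP3. Of the 9, 9 were at 1 CPM or more in siControl libraries 1 and 2, 7 in siControl library 3 and 8 in siIQGAP3. PDGFRB (25.7, 22.9 and 67.0 CPM in siControl, 105.7 to 113 CPM in siIQGAP3) and THY1 (80.6, 91.9 and 235 CPM, 253 to 260 CPM) went against the sum, and the others were lower in siControl library 3 and siIQGAP3 than in siControl libraries 1 and 2. The 4 gonadal soma markers summed to 512, 570.5 and 9.28 CPM in siControl and 2.28 to 2.75 CPM in siIQGAP3. Most of that sum in siControl libraries 1 and 2 was LHX9, at 478 and 529 CPM, whereas NR5A1 was highest in siControl library 3, at 7.94 CPM. Of the trophoblast markers ELF5 was at 0 in all 6 libraries. The part of other cell types in the results was not tested, and in bulk RNA a smaller share of cells of a type and less RNA per cell cannot be told apart.

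IQGAP3 itself was lower in siIQGAP3, by about a factor of 2.08, and its paralogs did not pass the test with all siControl libraries. IQGAP3 was at 105, 127 and 82.5 CPM in the siControl libraries and 52.1, 49.6 and 48.9 CPM in the siIQGAP3 libraries. All 3 siIQGAP3 values were below all 3 siControl values, and siControl library 3 was the nearest of the controls. The group means were 105 ± 22.0 CPM (SD, n = 3) in siControl and 50.2 ± 1.67 CPM (SD, n = 3) in siIQGAP3. On the log2 scale the fitted change was -1.06 with an SE of 0.28 (adjusted p = 0.0138 by edgeR's quasi-likelihood test, adjusted over all genes tested by Benjamini and Hochberg's method, as every adjusted p below). The call was lost without siControl library 2 (-0.90, adjusted p = 0.0604), without siIQGAP3 library 3 (-1.04, adjusted p = 0.0503) and against siControl library 3 alone (-0.72, adjusted p = 0.244). The siIQGAP3 mean stood at 48.0% of the siControl mean. In the 9 libraries of the other knockdowns IQGAP3 lay at 4.42 to 24.5 CPM, below the siIQGAP3 libraries.

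IQGAP1, the widely expressed member of the family, was at 223, 203 and 341 CPM in siControl and 357, 332 and 342 CPM in siIQGAP3 (adjusted p = 0.168). IQGAP2, the paralog best known from liver, was at 61.1, 53.5 and 43.0 CPM in siControl libraries 1 to 3 and 36.3, 33.8 and 31.6 CPM in siIQGAP3 (log2 fold change -0.63 ± 0.24, adjusted p = 0.0646). Neither paralog passed the test with all 3 siControl libraries, but without siControl library 3 both did, with log2 fold changes of 0.69 for IQGAP1 (adjusted p = 0.0152) and -0.76 for IQGAP2 (adjusted p = 0.0262). The other siRNA targets of the series did not pass either, with IGF2BP1 at 809.9, 1039 and 786 CPM in the siControl libraries and 838, 764 and 782 CPM in the siIQGAP3 libraries, SRF at 82.8, 92.2 and 86.7 CPM in siControl and 95.9, 95.6 and 93.4 CPM in siIQGAP3, and FOXM1 at 876, 919.9 and 773 CPM in siControl libraries 1 to 3 and 783, 797 and 797 CPM in siIQGAP3. Their log2 fold changes were -0.14 (adjusted p = 0.499), 0.12 (adjusted p = 0.552) and -0.11 (adjusted p = 0.764).

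**Figure D2:**
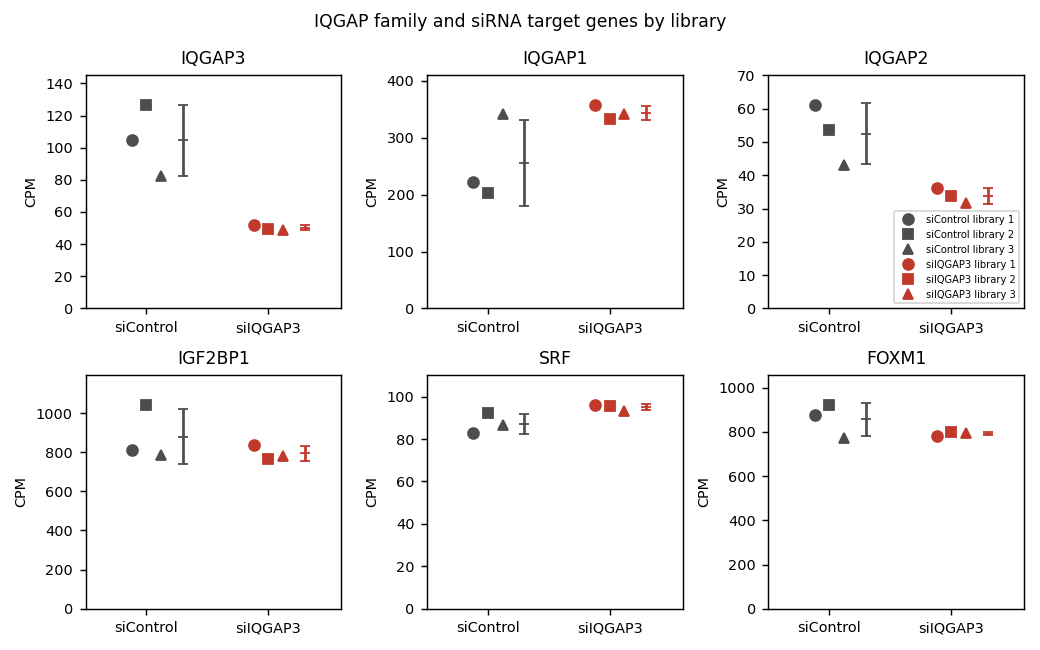
Level in CPM (vertical axes, from 0) of the 3 IQGAP genes and the 3 other siRNA targets in each siControl (grey) and siIQGAP3 (red) library, with the group mean and SD as a bar beside the points. IQGAP3 at 48.9 to 52.1 CPM in siIQGAP3 lies below its siControl values of 82.5 to 127 CPM, and siControl library 3 lies beside the siIQGAP3 libraries for IQGAP1.

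The level of IQGAP3 rests on deposited tables that do not match for this gene. In the normalised table the value of a gene was its count times a fixed factor per library for all but 9 of 20407 genes. The exceptions were A1BG, FOXM1, IGF2BP1, IQGAP3, KLF4, MYC, NANOG, POU5F1 and SRF, and in the 6 libraries 42 of their 54 values were off the factor, by -29.1% to 21.55%, of which 24 differed by a multiple of 10 to within 0.001. For IQGAP3 the normalised value differed from the scaled count by -500 in siControl library 2, by 600 in siControl library 3 and by -200, -300 and -300 in the siIQGAP3 libraries. Counts were used throughout, and with the normalised values IQGAP3 changed by -1.29 (limma-trend, adjusted p = 0.00118).

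The promoter of IQGAP3 is shown because the siRNA target is the starting point of every comparison here, and those of HEYL and DUSP6 because these genes of Notch and ERK signalling, described next, are among the largest changes with agreeing controls. Each is 250 bases before to 50 after the start of transcription, 5' to 3' on the strand of the gene, from RefSeq on GRCh38.p14 (the deposited counts were made on GRCh37), and all 3 genes lie on the minus strand. Capitals mark matches, on either strand, to TTTGAA (the cell cycle homology region) in IQGAP3, to TGGGAA (the core bound by RBPJ, the DNA-binding partner of Notch) in HEYL and to CGGAAG (a core bound by ETS factors) in DUSP6.
IQGAP3 promoter, chr1:156572516-156572815: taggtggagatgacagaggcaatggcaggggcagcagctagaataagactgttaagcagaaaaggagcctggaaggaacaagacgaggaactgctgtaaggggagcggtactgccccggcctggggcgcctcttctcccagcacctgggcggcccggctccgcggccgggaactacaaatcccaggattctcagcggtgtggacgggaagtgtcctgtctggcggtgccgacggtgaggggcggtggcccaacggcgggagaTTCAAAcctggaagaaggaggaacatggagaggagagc
HEYL promoter, chr1:39639594-39639893: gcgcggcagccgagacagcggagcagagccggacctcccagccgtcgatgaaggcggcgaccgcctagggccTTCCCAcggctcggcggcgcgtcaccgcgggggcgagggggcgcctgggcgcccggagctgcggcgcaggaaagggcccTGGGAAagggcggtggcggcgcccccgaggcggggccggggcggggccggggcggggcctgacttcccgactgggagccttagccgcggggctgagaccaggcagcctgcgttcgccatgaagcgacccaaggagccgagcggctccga
DUSP6 promoter, chr12:89352452-89352751: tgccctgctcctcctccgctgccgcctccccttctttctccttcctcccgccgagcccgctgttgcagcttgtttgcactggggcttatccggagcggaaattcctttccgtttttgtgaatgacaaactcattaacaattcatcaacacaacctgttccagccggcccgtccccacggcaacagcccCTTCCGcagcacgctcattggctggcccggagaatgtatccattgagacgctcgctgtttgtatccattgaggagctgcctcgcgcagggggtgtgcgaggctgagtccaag
IQGAP3 held 1 match, beginning 12 bases after the start, HEYL held 2, beginning 178 and 99 bases before it, and DUSP6 held 1, beginning 62 bases before it. Of 35116 promoters of this length, 15.2% held TTTGAA, 24.0% TGGGAA and 19.5% CGGAAG on either strand, so these matches are a description of the letters and show no binding.

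Over all genes the comparison called 6096 of 18760 tested (32.5%) at an adjusted p under 0.05, 2034 higher (10.8%) and 4062 lower (21.7%) in siIQGAP3. Of these, 923 higher and 3038 lower genes changed by at least a factor of 2. Among the 9985 agreeing-control genes 2888 were called (28.9%), 1337 higher (13.4%) and 1551 lower (15.5%). The class is set by the control values, so its share of calls is a description and nothing is read from it. Of the other calls 1920 were of genes in which siControl library 3 lay with siIQGAP3, 228 higher and 1692 lower, and 1288 of genes in neither class. Without siControl library 3 the comparison called 10656 genes (56.8%), and against siControl library 3 alone 2373 genes (12.6%). Without any 1 of the other 5 libraries the comparison with all remaining libraries called 3519 to 3898 genes, and a fit of the 6 libraries by themselves 3619. In all 3 forms of the comparison (all siControl libraries, without siControl library 3, and against it alone) 1434 genes were called in the same direction, 367 higher and 1067 lower, and 887 of these had agreeing controls.

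The largest decreases with agreeing controls took in members of the pluripotency, Notch and WNT lists, and each of the 15 named by rule was also lower against siControl library 3 alone. Without each library in turn 14 of the 15 kept their call, the exception being CDH5. HEYL, a Notch-responsive repressor of the HES and HEY family, was at 11.1, 12.1 and 10.9 CPM in the siControl libraries and 0.548, 0.462 and 0.358 CPM in the siIQGAP3 libraries. The controls differed little and the siIQGAP3 libraries lay far below. The log2 fold change was -4.63 ± 0.23 (adjusted p = 8.31e-07, the smallest of these 15). Against siControl library 3 alone the change was -4.58 (adjusted p = 1.15e-06).

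KLF4, a Krüppel-like factor of the pluripotency network, was at 234, 269 and 138 CPM in siControl and 9.04, 9.18 and 8.81 CPM in siIQGAP3. POU5F1, the OCT4 gene and a central pluripotency factor, was at 906, 874 and 711 CPM in siControl libraries 1 to 3 and 57.9, 60.7 and 60.8 CPM in siIQGAP3. NANOG, a homeobox factor of the same network, was at 80.0, 100.2 and 69.5 CPM in the siControl libraries and 8.08, 7.94 and 7.87 CPM in the siIQGAP3 libraries. In each of the 3 genes siControl library 3 was the lowest control and still several-fold above every siIQGAP3 library. The libraries of the other knockdowns were also below every siControl library, KLF4 at 12.7 to 25.9 CPM, POU5F1 at 19.6 to 84.4 CPM and NANOG at 1.64 to 7.26 CPM. A fall of these genes was thus not particular to siIQGAP3, and for POU5F1 the siIQGAP3 values were inside that range. KLF4 fell by 4.57 ± 0.30 (SE) on the log2 scale (adjusted p = 9.35e-06), POU5F1 fell by 3.80 ± 0.48 (adjusted p = 2.65e-04) and NANOG fell by 3.38 ± 0.48 (adjusted p = 5.40e-04). Against siControl library 3 alone the changes were -3.93, -3.57 and -3.12 (adjusted p = 1.02e-05, 0.00161 and 0.00364). POU5F1 and NANOG have near-identical processed copies in the genome, so their counts are uncertain, and all 3 are among the genes whose deposited tables differ. MYC, a growth-promoting transcription factor that also differs between the tables, was at 746, 888 and 491 CPM in siControl and 58.3, 59.1 and 60.8 CPM in siIQGAP3 (log2 fold change -3.58 ± 0.30, adjusted p = 2.54e-05). In the libraries of the other knockdowns MYC lay at 28.3 to 66.4 CPM, so its siIQGAP3 values were inside their range.

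**Figure D3:**
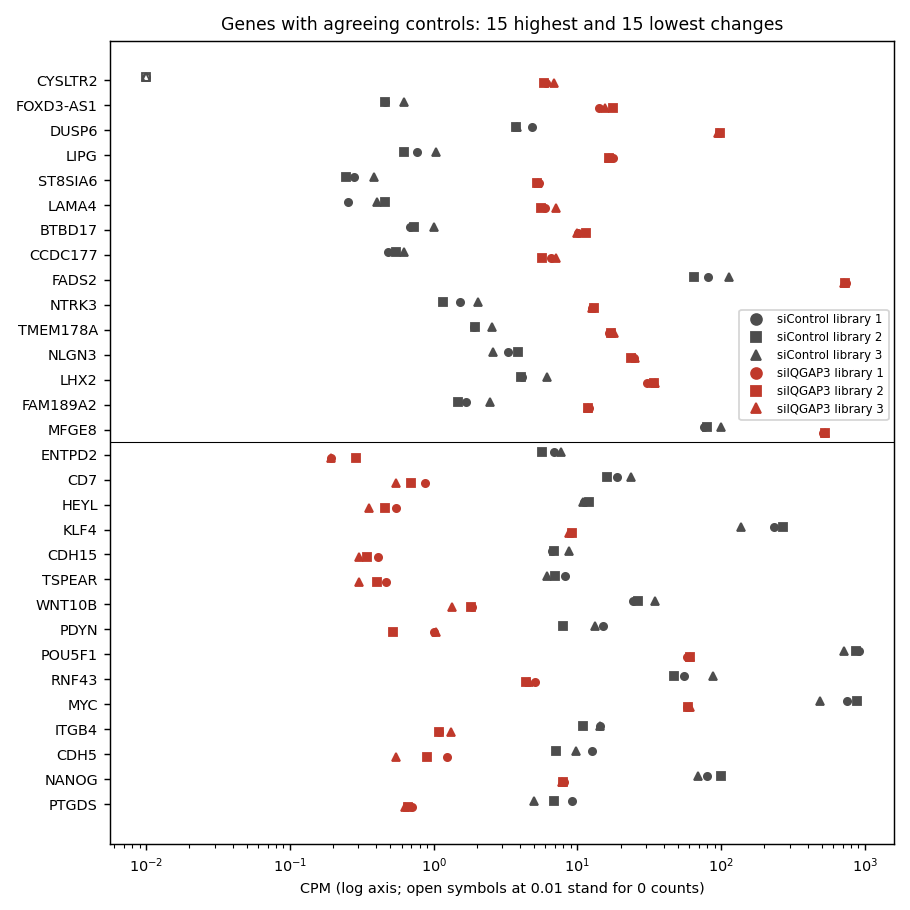
CPM on a log axis, by library, of the 15 largest increases (above the line) and the 15 largest decreases (below it) among called genes with agreeing controls, with siControl in grey and siIQGAP3 in red. The groups are separate in every row, as the rule required, and CYSLTR2 was at 0 in all 3 siControl libraries against 5.89 to 6.83 CPM in siIQGAP3.

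Further decreases among these 15 were of genes for surface and secreted proteins. ENTPD2, an ectonucleotidase, was at 6.88, 5.65 and 7.64 CPM in siControl libraries 1 to 3 and 0.192, 0.289 and 0.193 CPM in siIQGAP3 (log2 fold change -4.89 ± 0.51, adjusted p = 8.52e-05). CD7, an immunoglobulin-family surface protein known from T cells, was at 19.0, 16.0 and 23.7 CPM in the siControl libraries and 0.877, 0.693 and 0.551 CPM in the siIQGAP3 libraries (log2 fold change -4.79 ± 0.37, adjusted p = 1.44e-05). ITGB4, the integrin chain of hemidesmosomes, was at 14.4, 10.97 and 14.3 CPM in siControl and 1.096, 1.097 and 1.32 CPM in siIQGAP3 (log2 fold change -3.49 ± 0.28, adjusted p = 2.09e-05). In these 3 genes every siIQGAP3 library lay below the lowest siControl library, as the rule for these 15 required. CDH15, the muscle cadherin, had a log2 fold change of -4.38 (adjusted p = 3.60e-05), TSPEAR one of -4.17 (adjusted p = 9.35e-06), PDYN, the precursor of dynorphin peptides, one of -3.81 (adjusted p = 0.00631), and PTGDS, a prostaglandin D synthase, one of -3.38 (adjusted p = 6.21e-04). CDH5, the endothelial cadherin, was at 12.7, 7.06 and 9.79 CPM in siControl libraries 1 to 3 and 1.23, 0.895 and 0.551 CPM in siIQGAP3 (log2 fold change -3.46 ± 0.88, adjusted p = 0.0106), and its call was lost without siIQGAP3 library 3 (adjusted p = 0.0506). In the libraries of the other knockdowns CDH5 lay at 0.0248 to 3.53 CPM and PDYN at 0.126 to 2.24 CPM. The siIQGAP3 values of both genes were inside these ranges.

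The 15 largest increases with agreeing controls included DUSP6, LIPG and FADS2. DUSP6, the cytoplasmic phosphatase that removes activating phosphates from ERK, was at 4.84, 3.72 and 3.82 CPM in the siControl libraries and 96.2, 98.2 and 95.3 CPM in the siIQGAP3 libraries. The controls lay close together and the siIQGAP3 mean was 23.4-fold higher (log2 fold change 4.55 ± 0.68, adjusted p = 7.35e-04). Against siControl library 3 alone the change was 4.66 (adjusted p = 0.0226), and the other knockdowns ranged over 13.5 to 135 CPM. LIPG, the endothelial lipase, was at 0.764, 0.625 and 1.05 CPM in siControl and 17.6, 16.5 and 16.7 CPM in siIQGAP3 (log2 fold change 4.38 ± 0.58, adjusted p = 3.76e-04). FADS2, the delta-6 fatty acid desaturase, was at 81.4, 64.9 and 114 CPM in siControl libraries 1 to 3 and 735, 727 and 721 CPM in siIQGAP3 (log2 fold change 3.07 ± 0.56, adjusted p = 0.00204). Against siControl library 3 alone LIPG passed at 4.02 (adjusted p = 0.0142) and FADS2, at 2.68, did not (adjusted p = 0.0701).

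Among genes of the nervous system NLGN3, a postsynaptic adhesion protein, was at 3.31, 3.86 and 2.58 CPM in the siControl libraries and 24.8, 23.7 and 25.3 CPM in the siIQGAP3 libraries (log2 fold change 2.92 ± 0.26, adjusted p = 3.57e-05). LHX2, a LIM homeobox factor of forebrain and eye, was at 4.10, 4.05 and 6.17 CPM in siControl and 30.7, 34.2 and 34.4 CPM in siIQGAP3 (log2 fold change 2.79 ± 0.62, adjusted p = 0.00558). NTRK3, the receptor for neurotrophin-3, was at 1.53, 1.17 and 2.05 CPM in siControl libraries 1 to 3 and 12.7, 13.1 and 12.7 CPM in siIQGAP3 (log2 fold change 3.02 ± 0.78, adjusted p = 0.0114). NLGN3 also rose against siControl library 3 alone (3.25, adjusted p = 2.04e-04), whereas LHX2 (2.42, adjusted p = 0.132) and NTRK3 (2.64, adjusted p = 0.194) did not pass there. The NTRK3 call was lost without siControl library 2 (adjusted p = 0.0540). ST8SIA6, a sialyltransferase, was at 0.280, 0.244 and 0.384 CPM in the siControl libraries and 5.42, 5.196 and 5.31 CPM in the siIQGAP3 libraries and rose by 4.11 ± 0.34 (adjusted p = 2.46e-05), the smallest p-value of the 15 increases. LAMA4, the laminin alpha-4 chain of vascular basement membranes, changed by 4.04 (adjusted p = 0.00251), BTBD17 by 3.69 (adjusted p = 0.00111), CCDC177 by 3.54 (adjusted p = 0.00167) and FAM189A2 by 2.67 (adjusted p = 0.00433).

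Of the 15 largest increases 10 kept their call without each library in turn, and 6 passed against siControl library 3 alone, DUSP6, LIPG, ST8SIA6, BTBD17, CCDC177 and NLGN3. The calls lost besides that of NTRK3 were those of CYSLTR2, FOXD3-AS1, TMEM178A and MFGE8. CYSLTR2, a receptor for cysteinyl leukotrienes, was at 0 in all 3 siControl libraries and at 6.03, 5.89 and 6.83 CPM in siIQGAP3, at least 256-fold higher than the 3 counts over the group taken as the floor, and its call (adjusted p = 0.0189) was lost without siControl library 1 or 2 (0.0576 to 0.0584). FOXD3-AS1, antisense to the FOXD3 gene and so uncertain without a known strand setting, was at 0.459, 0.462 and 0.619 CPM in siControl and 14.1, 17.6 and 15.5 CPM in siIQGAP3 (log2 fold change 4.93 ± 1.497, adjusted p = 0.0248), with lost values of 0.0522 to 0.0882 without siControl library 1 or 2 or siIQGAP3 library 2 or 3. TMEM178A, a membrane protein, was lost without siControl library 1 or 2 (0.0728 to 0.0739), and MFGE8, a secreted protein that bridges dying cells to phagocytes, without any library but siControl library 3 (0.0647 to 0.105).

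The 29 gene lists held 643 distinct tested symbols, of which 232 were called, 76 higher and 156 lower, and 80 of these had agreeing controls. The median log2 fold change over all tested genes was -0.06, which the medians of the lists are read against, as their counts are against the 10.8% of all genes called higher and 21.7% called lower. The counts below take in members of every class, also those in which siControl library 3 lay with siIQGAP3. Of all tested genes 23.4% were in that class, 53.2% had agreeing controls and 23.4% were in neither. No test of a list as a whole was made.

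**Figure D4:**
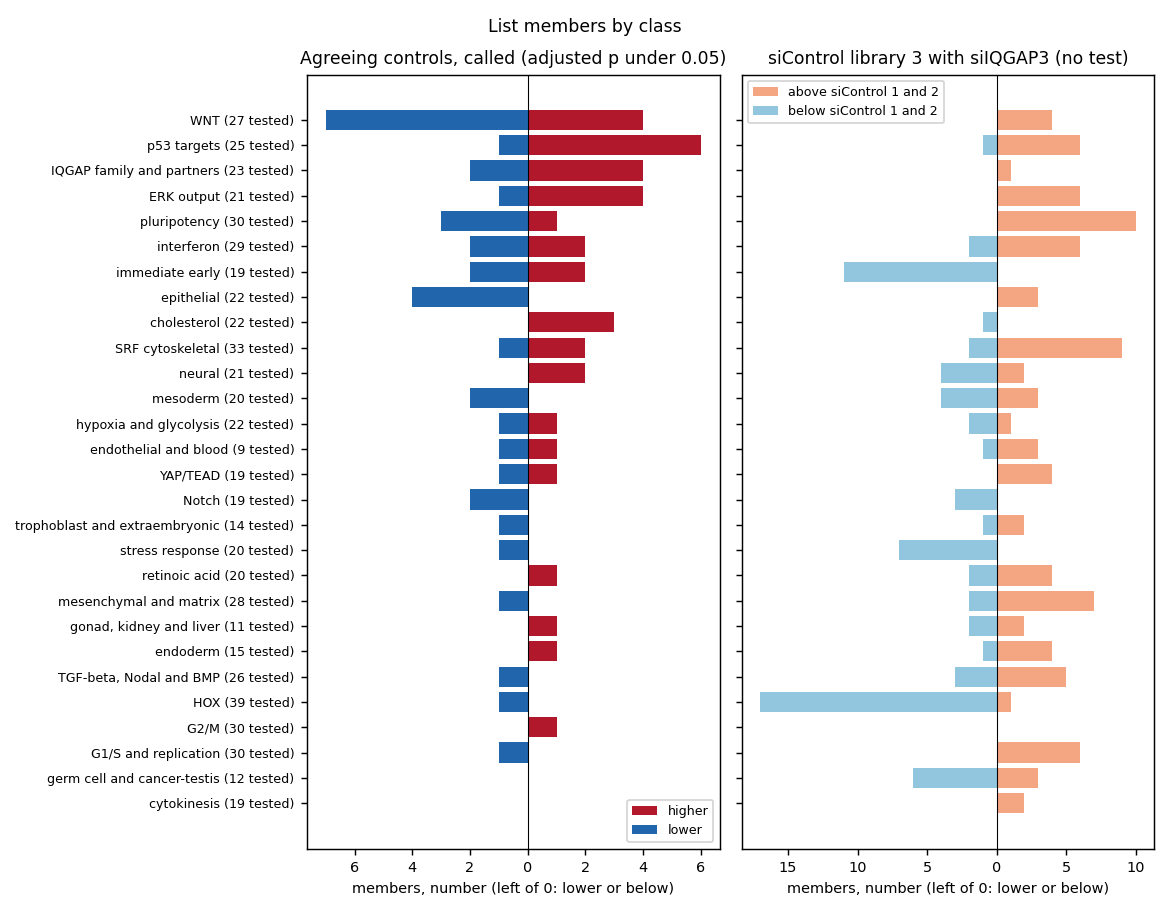
Number of members of each list shown that were called with agreeing controls (left, red higher and blue lower) and number in which siControl library 3 lay with siIQGAP3 (right, not tested, orange above and pale blue below siControl libraries 1 and 2). Bars to the left of 0 count lower or below. WNT has the most agreeing-control calls, 11, and HOX the most genes in which siControl library 3 lay with siIQGAP3, 18.

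Of the 30 pluripotency genes, 6 rose, 6 fell and 18 did not pass (median 0.97). This median depended on the controls, at 0.04 against siControl library 3 alone and 1.91 without that library. Of the 7 with agreeing controls KLF4, POU5F1 and NANOG fell, and ZFP42, a zinc finger marker of the naive state, rose, at 0, 0.0272 and 0.0213 CPM in siControl libraries 1 to 3 and 1.70, 1.62 and 2.28 CPM in siIQGAP3 (adjusted p = 0.00512). No siControl library held 3 counts of ZFP42, so no fold is given, and against siControl library 3 alone it did not pass (adjusted p = 0.0866). LEFTY2, UTF1 and JARID2 did not pass. In 10 genes siControl library 3 lay with siIQGAP3, above libraries 1 and 2 in all 10. SOX2, the partner of OCT4, was at 59.3, 35.7 and 176 CPM in the siControl libraries and 282, 295 and 292 CPM in the siIQGAP3 libraries. DNMT3B, a de novo DNA methyltransferase, was at 113, 91.4 and 371 CPM in siControl and 557, 538 and 552 CPM in siIQGAP3. GDF3, a TGF-beta family ligand, was at 25.9, 15.9 and 88.8 CPM in siControl libraries 1 to 3 and 145, 155 and 148 CPM in siIQGAP3. In all 3 genes siControl library 3 lay between siControl libraries 1 and 2 and siIQGAP3. The others of this class were LIN28B, DPPA4, SALL4, PODXL, FGF4, TRIM71 and VRTN.

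In neither class were 13 pluripotency genes, of which NODAL and LEFTY1 fell and USP44 rose in all 3 forms of the comparison. NODAL, the ligand that maintains the primed pluripotent state, was at 6.57, 3.88 and 17.5 CPM in the siControl libraries and 0.877, 1.097 and 0.908 CPM in the siIQGAP3 libraries. LEFTY1, its secreted inhibitor, was at 8.05, 4.29 and 16.3 CPM in siControl and 1.151, 1.30 and 0.963 CPM in siIQGAP3. Both were highest in siControl library 3 and lowest in siIQGAP3, with log2 fold changes of -3.27 ± 0.54 (adjusted p = 0.00119) and -3.06 ± 0.45 (adjusted p = 6.63e-04), and of -4.18 and -3.83 against library 3 alone (adjusted p = 1.20e-04 and 8.92e-05). USP44, a deubiquitinase of the stem cell state, was at 7.29, 3.72 and 30.7 CPM in siControl libraries 1 to 3 and 126, 125 and 128 CPM in siIQGAP3 (log2 fold change 3.18 ± 0.60, adjusted p = 0.00230). DNMT3L, a cofactor of the de novo methyltransferases, was at 13.6, 9.04 and 2.30 CPM in the siControl libraries and 0.658, 0.462 and 0.606 CPM in the siIQGAP3 libraries and fell in all 3 forms (log2 fold change -3.84 ± 0.56, adjusted p = 6.64e-04). These 4 lie outside the rule for named genes and were chosen after their values were seen.

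**Figure D5:**
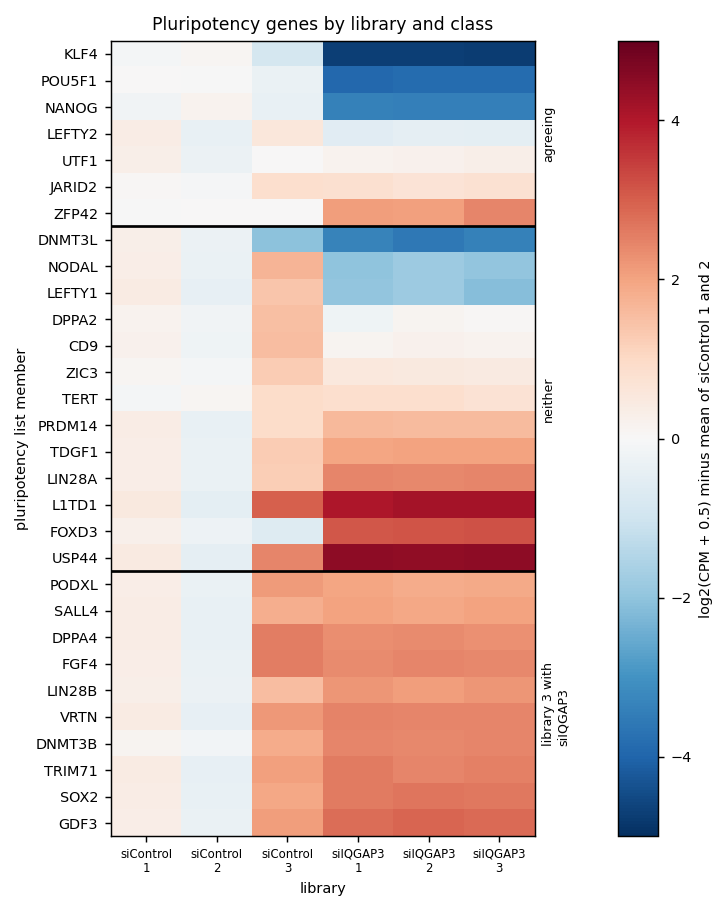
Colour gives log2(CPM + 0.5) of each of the 30 pluripotency genes (rows, grouped by class) in each library (columns) minus the mean of siControl libraries 1 and 2, on a scale from -5 to 5. KLF4, POU5F1 and NANOG are far lower in the 3 siIQGAP3 libraries than in any siControl library, while the 10 genes of the lowest block, SOX2 among them, are higher in siControl library 3 and in siIQGAP3.

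Of 27 tested WNT genes 5 rose, 15 fell and 7 did not pass (median -1.54), and all 11 with agreeing controls were called, 4 higher and 7 lower. Against siControl library 3 alone the median log2 fold change of the WNT genes was -0.86. The lower genes took in 7 ligands, of which WNT4 (adjusted p = 0.0325) lost its call without any library but siControl library 3 (0.0736 to 0.114) and against siControl library 3 alone (0.420), and WNT8A (adjusted p = 0.0169) lost it without siControl library 3 or siIQGAP3 library 1 or 3 (0.0634 to 0.0733). WNT10B, a canonical WNT ligand, was at 24.3, 26.5 and 34.8 CPM in siControl and 1.84, 1.82 and 1.35 CPM in siIQGAP3 (log2 fold change -4.09 ± 0.26, adjusted p = 9.35e-06). WNT3A, another canonical ligand, was at 4.82, 2.99 and 2.86 CPM in siControl libraries 1 to 3 and 0.575, 0.693 and 0.716 CPM in siIQGAP3 (log2 fold change -2.42 ± 0.50, adjusted p = 0.00388). WNT11, a ligand of non-canonical signalling, was in neither class at 36.0, 42.4 and 10.7 CPM in the siControl libraries and 0.904, 0.953 and 0.908 CPM in the siIQGAP3 libraries, and it fell in all 3 forms of the comparison (log2 fold change -5.005 ± 0.44, adjusted p = 3.34e-05). Each of these 3 ligands was lower in every siIQGAP3 library than in any siControl library.

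Other members of the WNT list that fell included AXIN2, RNF43, ZNRF3 and NOTUM, while DKK1 and LGR5, targets of the pathway as well, did not pass (adjusted p = 0.890 and 0.251). AXIN2, a scaffold of the destruction complex and a standard target, was at 152, 174 and 94.96 CPM in siControl and 28.4, 25.5 and 27.6 CPM in siIQGAP3 (log2 fold change -2.37 ± 0.27, adjusted p = 1.53e-04). RNF43, a ligase that removes WNT receptors from the surface, was at 55.0, 47.3 and 87.1 CPM in siControl libraries 1 to 3 and 5.04, 4.42 and 4.60 CPM in siIQGAP3 (log2 fold change -3.75 ± 0.43, adjusted p = 1.53e-04). ZNRF3, its paralog, was at 52.1, 58.7 and 30.9 CPM in the siControl libraries and 21.3, 19.7 and 18.9 CPM in the siIQGAP3 libraries (log2 fold change -1.24 ± 0.20, adjusted p = 0.00110). All 3 also fell against siControl library 3 alone, with log2 fold changes of -1.81, -4.22 and -0.63 (adjusted p = 0.00170, 1.75e-04 and 0.0223). Of the genes in neither class NOTUM, an enzyme that inactivates WNT ligands, was at 106, 116 and 57.9 CPM in siControl and 1.48, 2.22 and 1.51 CPM in siIQGAP3 (log2 fold change -5.75 ± 0.44, adjusted p = 1.44e-05), and NKD1, NKD2, SP5 and TCF7 had log2 fold changes of -3.21, -5.62, -3.21 and -2.25 (adjusted p = 5.38e-04, 4.05e-04, 0.00358 and 4.06e-04). SP5 was highest in siControl library 3, at 72.0 CPM against 3.42, 3.55 and 3.94 CPM in siIQGAP3, whereas the other 3 were lower in library 3 than in libraries 1 and 2.

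Receptors and extracellular antagonists were among the WNT genes that rose. FZD7, a WNT receptor of pluripotent cells, was at 89.0, 79.7 and 57.5 CPM in siControl libraries 1 to 3 and 165, 161 and 151 CPM in siIQGAP3 (log2 fold change 1.08 ± 0.21, adjusted p = 0.00273). FZD5, another receptor, was at 24.7, 22.6 and 30.7 CPM in the siControl libraries and 77.0, 71.0 and 75.8 CPM in the siIQGAP3 libraries (log2 fold change 1.52 ± 0.28, adjusted p = 0.00210), and did not pass against siControl library 3 alone (adjusted p = 0.0623). SFRP1, a secreted antagonist in neither class, was at 22.2, 14.7 and 49.5 CPM in siControl and 368, 338 and 350.1 CPM in siIQGAP3 (log2 fold change 3.61 ± 0.60, adjusted p = 0.00124). FRZB, an antagonist of the same kind, rose by 1.69 (adjusted p = 0.00155). The call of WNT5A (1.01, adjusted p = 0.0496), the remaining agreeing-control increase, was lost without each of the 6 libraries in turn (0.0807 to 0.108) and against siControl library 3 alone (adjusted p = 0.0560).

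Of 19 Notch genes 1 rose, 9 fell and 9 did not pass (median -0.79). The receptors NOTCH1, NOTCH2 and NOTCH3 had agreeing controls and adjusted p-values of 0.819, 0.270 and 0.0668. Beside HEYL, JAG2, a Notch ligand in neither class, was at 215, 255 and 49.4 CPM in siControl libraries 1 to 3 and 15.9, 16.9 and 16.1 CPM in siIQGAP3 (log2 fold change -3.41 ± 0.47, adjusted p = 4.51e-04). HES4, a HES-family repressor, was at 52.7, 49.5 and 36.0 CPM in the siControl libraries and 12.7, 15.4 and 12.8 CPM in the siIQGAP3 libraries (log2 fold change -1.76 ± 0.52, adjusted p = 0.0218), and its call was lost without each library but siControl library 3 (0.0566 to 0.0732) and against that library alone (adjusted p = 0.223). HES1, the widely expressed family member, was the increase, at 18.3, 11.4 and 32.0 CPM in siControl and 71.7, 86.4 and 80.8 CPM in siIQGAP3 (log2 fold change 1.95 ± 0.37, adjusted p = 0.00253), and against siControl library 3 alone it did not pass (1.32, adjusted p = 0.0843). HEY1 was a gene in which siControl library 3 lay with siIQGAP3, at 24.3, 25.6 and 0.982 CPM in siControl libraries 1 to 3 and 0.603, 0.635 and 0.688 CPM in siIQGAP3, as were HEY2 and DLL1.

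Of 21 genes of ERK output 7 rose, 2 fell and 12 did not pass (median 1.01). DUSP4, the nuclear phosphatase of ERK, was in neither class because siControl library 3 was slightly more than a factor of 2 above the other controls, and it was at 1.40, 1.47 and 3.14 CPM in the siControl libraries and 62.2, 64.7 and 63.0 CPM in the siIQGAP3 libraries. It rose by 4.98 ± 0.53 (adjusted p = 9.25e-05) and by 4.33 against siControl library 3 alone (adjusted p = 0.00300). SPRY2, an inhibitor of receptor tyrosine kinase signalling, was at 33.8, 26.5 and 29.4 CPM in siControl and 64.6, 65.7 and 69.6 CPM in siIQGAP3 (log2 fold change 1.16 ± 0.15, adjusted p = 3.92e-04). With DUSP6 these were 3 feedback inhibitors of ERK that rose in all 3 forms of the comparison. PHLDA1 (1.34, adjusted p = 0.0382) and ETV1 (0.63, adjusted p = 0.0493) lost their calls without any library but siControl library 3 (0.0807 to 0.140 and 0.0966 to 0.155) and against that library alone (adjusted p = 0.413 and 0.438). The decreases were MYC and EGR1, an immediate early factor in neither class, at 489.6, 605 and 56.7 CPM in siControl libraries 1 to 3 and 15.6, 16.1 and 16.0 CPM in siIQGAP3 (log2 fold change -4.59 ± 0.997, adjusted p = 0.00500), which did not pass against siControl library 3 alone (-1.83, adjusted p = 0.249). FOSL1, DUSP5, ETV4, IER3, EPHA2 and IL17RD were genes in which siControl library 3 lay with siIQGAP3, above libraries 1 and 2, FOSL1 at 5.78, 4.67 and 66.8 CPM in the siControl libraries and 106, 111 and 107 CPM in the siIQGAP3 libraries.

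Of 23 tested genes of the IQGAP family and its binding partners 6 rose, 3 fell and 14 did not pass (median 0.27). CALM2, which encodes calmodulin, was at 230.5, 224 and 251 CPM in siControl and 383, 418 and 408 CPM in siIQGAP3 (log2 fold change 0.78 ± 0.14, adjusted p = 0.00207). MAPK3, the gene of ERK1, was at 95.7, 109 and 80.5 CPM in siControl libraries 1 to 3 and 53.9, 58.2 and 53.6 CPM in siIQGAP3 (log2 fold change -0.78 ± 0.19, adjusted p = 0.00821), and did not pass against siControl library 3 alone (-0.54, adjusted p = 0.173). CDH1, the epithelial cadherin, was in neither class at 125, 76.4 and 293 CPM in the siControl libraries and 22.0, 19.6 and 19.7 CPM in the siIQGAP3 libraries and fell in all 3 forms of the comparison (log2 fold change -3.01 ± 0.58, adjusted p = 0.00262; -3.84 against library 3 alone, adjusted p = 0.00134). The calls of the GTPase genes RAC1 (0.40, adjusted p = 0.0303) and CDC42 (0.53, adjusted p = 0.0393) were lost without any library but siControl library 3 (0.0662 to 0.126 and 0.0843 to 0.162) and against that library alone (adjusted p = 0.476 and 0.775).

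Genes of cell division showed few calls. Of 19 cytokinesis genes 0 passed in edgeR, 3 at an unadjusted p under 0.05, and DESeq2 called 1 higher and 1 lower, and limma-voom and limma-trend called 1 higher each. PLK1, a mitotic kinase, was at 267, 283 and 315 CPM in siControl and 353, 368 and 364 CPM in siIQGAP3 (adjusted p = 0.524). ECT2, an exchange factor that acts at the division plane, was a gene in which siControl library 3 lay with siIQGAP3, at 71.0, 60.9 and 156 CPM in siControl libraries 1 to 3 and 159, 158 and 156 CPM in siIQGAP3. Of 30 G2/M genes CENPF, a kinetochore protein, rose (log2 fold change 0.73 ± 0.24, adjusted p = 0.0354) and 29 did not pass, and the CENPF call was lost without any library but siControl library 3 (0.0763 to 0.131) and against that library alone (adjusted p = 0.484). Of 30 genes of G1/S and replication E2F2 fell, at 28.8, 30.2 and 21.4 CPM in the siControl libraries and 10.6, 8.86 and 9.61 CPM in the siIQGAP3 libraries (log2 fold change -1.47 ± 0.38, adjusted p = 0.0110), and 29 did not pass. E2F2 did not pass against siControl library 3 alone (-1.14, adjusted p = 0.162). In 6 others, CDC25A and CCNE1 among them, siControl library 3 lay with siIQGAP3, CCNE1, the cyclin of S phase entry, at 14.6, 13.5 and 53.03 CPM in siControl and 43.5, 45.1 and 46.7 CPM in siIQGAP3.

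Of 25 p53 targets 10 rose, 2 fell and 13 did not pass (median 0.60), 6 of the increases and 1 decrease with agreeing controls. SESN1, a stress-induced inhibitor of mTORC1, was at 9.58, 8.17 and 11.9 CPM in siControl libraries 1 to 3 and 23.8, 23.9 and 24.0 CPM in siIQGAP3 (log2 fold change 1.27 ± 0.28, adjusted p = 0.00580). BAX, a pore-forming protein of apoptosis, was at 50.1, 49.0 and 59.6 CPM in the siControl libraries and 84.6, 89.3 and 90.8 CPM in the siIQGAP3 libraries (log2 fold change 0.74 ± 0.17, adjusted p = 0.00671). CCNG1, cyclin G1, was at 164, 147 and 129 CPM in siControl and 216, 223 and 228 CPM in siIQGAP3 (log2 fold change 0.60 ± 0.15, adjusted p = 0.0114), and it alone of these 3 also rose against siControl library 3 (0.79, adjusted p = 0.0268, with 0.134 for SESN1 and 0.143 for BAX). FDXR, a mitochondrial reductase, fell (log2 fold change -0.86 ± 0.15, adjusted p = 0.00187). CDKN1A, the p21 gene, was in neither class and did not pass, at 46.0, 53.6 and 92.2 CPM in siControl libraries 1 to 3 and 151, 151 and 150.0 CPM in siIQGAP3 (adjusted p = 0.132).

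Of 22 epithelial genes 7 fell and 15 did not pass (median -0.54), 4 of the decreases with agreeing controls. GRHL2, a transcription factor of epithelia, was at 4.33, 3.23 and 4.63 CPM in the siControl libraries and 0.411, 0.635 and 0.468 CPM in the siIQGAP3 libraries (log2 fold change -3.00 ± 0.41, adjusted p = 4.53e-04). CLDN7, a claudin of tight junctions, was at 20.3, 21.1 and 12.9 CPM in siControl and 2.55, 2.63 and 2.42 CPM in siIQGAP3 (log2 fold change -2.83 ± 0.32, adjusted p = 1.49e-04). DSP, the desmoplakin of desmosomes, was at 235, 153 and 209 CPM in siControl libraries 1 to 3 and 91.5, 85.9 and 86.8 CPM in siIQGAP3 (log2 fold change -1.18 ± 0.29, adjusted p = 0.00921). In the libraries of the other knockdowns GRHL2 lay at 0.109 to 0.403 CPM, below every siIQGAP3 library. The siIQGAP3 values of DSP were inside the range of those libraries, 76.1 to 168 CPM. CLDN7 lay at 8.33 to 17.3 CPM there, above every siIQGAP3 library. GRHL2 and CLDN7 fell against siControl library 3 alone (-3.19 and -2.35, adjusted p = 8.87e-04 and 0.00123) and DSP did not pass there (adjusted p = 0.0564). OVOL1 (-1.43, adjusted p = 0.0163) lost its call without siControl library 1 or siIQGAP3 library 1 or 2 (0.0603 to 0.0785) and against siControl library 3 alone (adjusted p = 0.118).

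Of 26 genes of TGF-beta, Nodal and BMP signalling 2 rose, 5 fell and 19 did not pass (median -0.02), of 20 mesoderm genes 2 rose, 9 fell and 9 did not pass (median -1.78), and of 14 trophoblast and extraembryonic genes 1 rose, 6 fell and 7 did not pass (median -0.63). The mesoderm median changed sign with the controls, at 0.35 against siControl library 3 alone and -2.16 without that library. Decreases with agreeing controls were MSX1 in the first list, TBX3 and MEOX1 in the second and GATA2 in the third. MSX1, a homeobox target of BMP signalling, was at 33.7, 36.7 and 32.8 CPM in the siControl libraries and 4.49, 5.17 and 5.37 CPM in the siIQGAP3 libraries (log2 fold change -2.78 ± 0.26, adjusted p = 4.39e-05). TBX3, a T-box factor, was at 84.4, 72.6 and 79.0 CPM in siControl and 16.5, 16.3 and 16.6 CPM in siIQGAP3 (log2 fold change -2.25 ± 0.18, adjusted p = 2.09e-05). GATA2, a zinc finger factor of trophoblast and blood, was at 36.2, 34.4 and 30.4 CPM in siControl libraries 1 to 3 and 9.15, 8.66 and 9.55 CPM in siIQGAP3 (log2 fold change -1.88 ± 0.33, adjusted p = 0.00170). MEOX1, a homeobox factor of somites, was at 1.96, 1.63 and 2.97 CPM in the siControl libraries and 0.137, 0.173 and 0.138 CPM in the siIQGAP3 libraries (log2 fold change -3.85 ± 0.63, adjusted p = 0.00121). The siIQGAP3 libraries lay below every siControl library in all 4 genes, and for MSX1, TBX3 and GATA2 the changes against siControl library 3 alone were -2.71, -2.26 and -1.74 (adjusted p = 2.36e-04, 8.77e-05 and 0.0206). Among the mesoderm genes that rose was FOXC2, in neither class, with a log2 fold change of 5.83 ± 0.84 (adjusted p = 5.89e-04). Its change against siControl library 3 alone was 4.50. Of 28 mesenchymal and matrix genes 3 rose, 8 fell and 17 did not pass (median -0.44). Here too the median changed sign with the controls, at 0.65 against siControl library 3 alone and -0.70 without that library. COL6A1, a collagen VI chain and the 1 called with agreeing controls, was at 593, 649 and 499 CPM in siControl and 161, 163 and 158 CPM in siIQGAP3 (log2 fold change -1.86 ± 0.23, adjusted p = 2.26e-04).

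Of 21 neural genes 5 rose, 4 fell and 12 did not pass (median -1.096), and LHX2 and TUBB3 were the increases with agreeing controls. The median of the list changed sign with the controls, at 1.14 against siControl library 3 alone and -0.12 without that library. TUBB3, the neuronal beta-tubulin, was at 154, 129.99 and 142 CPM in siControl libraries 1 to 3 and 329, 353 and 350.4 CPM in siIQGAP3 (log2 fold change 1.28 ± 0.24, adjusted p = 0.00251), and rose against siControl library 3 alone (1.28, adjusted p = 0.0431). OTX2, a homeobox factor of forebrain and of primed pluripotent cells, was in neither class at 3.18, 2.25 and 4.99 CPM in the siControl libraries and 139, 136 and 137 CPM in the siIQGAP3 libraries (log2 fold change 5.30 ± 0.79, adjusted p = 7.29e-04). SIX3, a homeobox factor of the eye field, was in neither class at 0.0510, 0.109 and 0.0213 CPM in siControl and 11.4, 11.1 and 12.5 CPM in siIQGAP3 (adjusted p = 0.00214), and with siControl libraries 1 and 3 under 3 counts no fold is given. Both passed as higher against siControl library 3 alone too (4.78 for OTX2, adjusted p = 0.0275, and adjusted p = 0.0327 for SIX3), and both were chosen after their values were seen. NCAM1, a neural adhesion molecule in neither class, fell (log2 fold change -2.23 ± 0.29, adjusted p = 3.04e-04). In 6 neural genes siControl library 3 lay with siIQGAP3, 2 above and 4 below siControl libraries 1 and 2. NEUROD1 was among those below, at 4.03, 4.07 and 0 CPM in siControl and 0.0274, 0.0577 and 0 CPM in siIQGAP3.

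The genes in which siControl library 3 lay with siIQGAP3 numbered 2191 above and 2199 below siControl libraries 1 and 2, and they are described without a test. In 45 of them siControl libraries 1 and 2 were at 5 CPM or more while siControl library 3 and every siIQGAP3 library were at 0.1 CPM or less, and 0 genes showed the reverse. LHX9, a LIM homeobox factor of gonad and limb, was at 478, 529 and 0.0213 CPM in siControl libraries 1 to 3 and 0.0274, 0.0289 and 0.0275 CPM in siIQGAP3. CTAG2, a cancer-testis antigen, was at 171, 207 and 0 CPM in the siControl libraries and 0, 0 and 0 CPM in the siIQGAP3 libraries. HOTTIP, a long non-coding RNA at the 5' end of the HOXA cluster, was at 145, 173 and 0.0427 CPM in siControl and 0, 0 and 0 CPM in siIQGAP3. In these 3 genes siControl library 3 could not be told from the siIQGAP3 libraries at this depth, where 3 counts correspond to 0.0640 CPM in that library and 0.0822 to 0.0866 CPM in siIQGAP3. PRAME, MAGEA3 and MAGEA4, further cancer-testis antigens, showed the same, as did PPP1R3A and CAT, the catalase gene, at 64.3, 77.5 and 0.0427 CPM in siControl libraries 1 to 3 and 0.0822, 0.0577 and 0 CPM in siIQGAP3. EID1, an inhibitor of acetyltransferases, was at 118, 120.3 and 0 CPM in the siControl libraries and 0.137, 0 and 0.0826 CPM in the siIQGAP3 libraries.

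Of all lists, HOX held the most genes of this kind, 18, where 23.4% of all tested genes were of this kind. Of 39 tested 2 rose, 24 fell and 13 did not pass (median -2.68), and 14 of the decreases were of these genes. Against siControl library 3 alone the median log2 fold change of the HOX genes was 0.17. HOXA13, of the posterior HOX group, measured 129, 134 and 0.107 CPM in siControl and 0.0548, 0.0577 and 0.0826 CPM in siIQGAP3. HOXC10 was at 97.2, 122 and 0.0427 CPM in siControl libraries 1 to 3 and 0, 0 and 0.0551 CPM in siIQGAP3. In 17 such HOX genes siControl library 3 lay below libraries 1 and 2 with siIQGAP3, and in 1 above. The 2 HOX genes that rose, HOXA5 and HOXB4, were in neither class and rose in all 3 forms. Their log2 fold changes were 2.35 ± 0.59 and 3.66 ± 0.72 (adjusted p = 0.0103 and 0.00290). The HOX gene with agreeing controls was HOXD12, at 2.19, 2.69 and 2.56 CPM in the siControl libraries and 0.548, 0.808 and 0.578 CPM in the siIQGAP3 libraries (log2 fold change -1.94 ± 0.34, adjusted p = 0.00158), and HOXC13 and HOXD13 in neither class also fell in all 3 forms (-4.36 and -3.10, adjusted p = 1.01e-04 and 5.99e-04).

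Immediate early and stress genes were further groups of the kind. In 11 of 19 immediate early genes and 7 of 20 stress response genes siControl library 3 lay below libraries 1 and 2 with siIQGAP3. Of all 18760 tested genes 2199 did so. FOS, a subunit of AP-1, was at 358, 418 and 16.4 CPM in siControl and 10.8, 10.5 and 9.44 CPM in siIQGAP3. DDIT4, a stress-induced inhibitor of mTORC1, was at 1028, 1256 and 11.1 CPM in siControl libraries 1 to 3 and 13.8, 12.3 and 12.7 CPM in siIQGAP3. VEGFA, the hypoxia-induced angiogenic factor, was at 319, 374 and 41.3 CPM in the siControl libraries and 38.4, 39.7 and 38.2 CPM in the siIQGAP3 libraries. A step between siControl libraries 1 and 2 and siControl library 3 is required by the rule of the class, so nothing is read from it in these genes.

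The opposite pattern, with siControl library 3 and siIQGAP3 both high, was that of ANKRD1 and NPPB. ANKRD1, a target of YAP and TEAD, was at 4.20, 2.04 and 108 CPM in siControl and 103, 104 and 107 CPM in siIQGAP3. NPPB, the precursor of brain natriuretic peptide, was at 1.30, 0.923 and 52.6 CPM in siControl libraries 1 to 3 and 47.6, 52.3 and 48.9 CPM in siIQGAP3. In both genes siControl library 3 was as high as siIQGAP3 or higher. TPM1, a tropomyosin, was at 208, 142 and 802 CPM in the siControl libraries and 1372, 1442 and 1481 CPM in the siIQGAP3 libraries, and COL4A1, a basement membrane collagen, was at 30.3, 17.3 and 297 CPM in siControl and 322, 302 and 317 CPM in siIQGAP3. In further genes named by rule, ADGRL4, MARCHF4, SERPINB7, ULBP1, GABRA5, SFTA1P, RBM24, GAL3ST3 and NIBAN1, siControl library 3 was at 3.78 to 30.2 CPM, siControl libraries 1 and 2 at 0.0272 to 1.89 CPM and siIQGAP3 at 5.23 to 37.5 CPM.

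The limit of a factor of 2 cuts through genes of like behaviour. Just inside it among called genes were MPPE1, a phosphoesterase, at 10.5, 12.4 and 6.17 CPM in siControl libraries 1 to 3 and 3.95, 2.77 and 3.39 CPM in siIQGAP3, and GIPC1, a scaffold protein, at 182, 222 and 111 CPM in the siControl libraries and 97.7, 105 and 105 CPM in the siIQGAP3 libraries. Just outside it were MRPL2, a mitochondrial ribosomal protein, at 45.7, 55.9 and 27.9 CPM in siControl and 20.5, 22.6 and 23.5 CPM in siIQGAP3, and FJX1, a secreted kinase-like protein, at 29.3, 21.9 and 43.9 CPM in siControl libraries 1 to 3 and 51.5, 56.6 and 54.0 CPM in siIQGAP3. MPPE1 also passed against siControl library 3 alone, and the other 3 did not (adjusted p = 0.737, 0.484 and 0.548). In all 4 genes siControl library 3 lay between the other siControl libraries and siIQGAP3. Of the 4385 genes in neither class 480 had siControl libraries 1 and 2 more than a factor of 2 apart, and in 653 siControl library 3 and siIQGAP3 lay on opposite sides of siControl libraries 1 and 2.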

How the data were processed

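RNA-seq counts per gene symbol were deposited by the authors as a single table of raw counts for 15 libraries, together with a table of normalised counts (unit signal, counts scaled by 1 factor per library) for 20407 genes. Per the submitters' processing notes the tools were STAR, SAMtools and featureCounts and the genome build was GRCh37. Tool versions, the annotation, the strand setting and the scaling tool are not given in the sources used here. Without a strand setting, reads of a gene and of its antisense partner cannot be told apart.

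From the raw counts, edgeR 4.0.16 in R 4.3.3 was used with its low-count filter, TMM scaling and a quasi-likelihood fit of all 15 libraries in 5 groups, which share 1 estimate of the spread, with siIQGAP3 tested against siControl. Genes at an adjusted p under 0.05 over all 18760 tested were called. The same fit with siControl library 3 as a level of its own gave the contrasts with siControl libraries 1 and 2 and with library 3 alone. The classes rest on log2 CPM (prior count 2) with a limit of 1. DESeq2 1.42.0, limma-voom and limma-trend (limma 3.58.1; log2 of the normalised value plus 1) were alternatives, as were other scalings, filters, class limits, and leaving out each library. The code was tested on simulated data in which the siControl libraries shared the same means and all genes the same dispersion. That test cannot show how calls behave when a control library stands apart, as here.

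Genes named were the siRNA targets and IQGAP paralogs, then, of called agreeing-control genes at a mean of 5 CPM or more in a group and with groups that do not overlap, the 15 highest and 15 lowest changes with a gene name. The rule added the 12 largest differences in each direction among genes in which siControl library 3 lay with siIQGAP3, at 5 CPM or more in any of the 6 libraries, up to 4 called agreeing-control members and up to 3 such library-3 members of each list, and the 2 genes on each side of the limit. The members and lists were chosen with earlier results of these data known. List members outside the rule were chosen after their values were seen. A few genes named by the rule and 1 list are not reported here.

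Depth was 35275570 to 44996064 counts per library, and 3 counts correspond to 0.0640 to 0.0866 CPM in the 6 libraries. CPM is per library and not per length, so levels were not compared between genes.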

Additional observations from a re-analysis of the deposited data

How the results depend on the processing

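The settings followed 191 named genes and list members, without those in which siControl library 3 lay with siIQGAP3. Over these genes and 16 settings, 2503 results kept direction and side of the threshold, 500 lost the call, 7 gained it and 17 changed sign. Fitted on the 6 libraries alone, the comparison called 3619 genes in place of 6096. Leaving out 1 library gave 3519 to 10711 genes called, 1599 to 4436 agreeing-control genes, 151 to 381 list members and log2 fold changes of IQGAP3 from -1.21 to -0.90, and for the contrast with siControl library 3 alone 1545 to 1597 genes. Each of the 6 libraries moved the counts of all genes, agreeing-control genes and list members by more than 1.5 times, upwards for siControl library 3 and downwards for the other 5. For library 3 alone, leaving out siIQGAP3 library 2 or 3 did so and leaving out library 1 (1597) did not. A class limit of 1.5-fold left 1686 agreeing-control genes called, and one of 3-fold left 2743 genes in which siControl library 3 lay with siIQGAP3. The list member count does not use the classes. Chosen after seeing the data, the fit without siControl library 3 called 10656 genes, 4438 with agreeing controls and 380 list members, and the fit against library 3 alone 2373, 1099 and 138, with IQGAP3 at -0.72 (adjusted p = 0.244).

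The 17 sign changes all arose against siControl library 3 alone, where the log2 fold change became 1.40 for ALDH1A1, 1.89 for CHAC1, 1.54 for COL1A2, 5.10 for COL3A1, 7.08 for DCN, 6.51 for FOXA2, 3.38 for HOXB8, 2.14 for HOXC5, 1.93 for PAX2, 2.69 for PDGFRA, 1.90 for POU3F2, 2.59 for PRRX1, 0.22 for RFNG, 2.004 for SCD, 1.61 for SQLE, 1.32 for SREBF1 and 3.61 for TBX5. In siControl library 3 DCN and FOXA2 had 0 counts and TBX5 fewer than 3, so these fitted values depend on the prior count and are no measure of size. The cause was not tested.

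The split of calls depended on the tool, with 2034 higher and 4062 lower in edgeR, 2627 and 4554 in DESeq2, 2583 and 2513 in limma-voom and 2640 and 3387 in limma-trend on the normalised values. Other scalings and filters moved the median log2 fold change of all genes between -0.07 and -0.04. The 186 called genes followed were named genes or list members outside the class in which siControl library 3 lay with siIQGAP3. Of these, 115 kept their call without each of the 6 libraries in turn, 71 lost it at least once and 7 lost it without siControl library 3. No paired analysis was possible because the columns carry no replicate numbers. Levels below the value of 3 counts, 0.0640 to 0.0866 CPM in the 6 libraries, could not be compared.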

Other observations

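Genes of cholesterol and fatty acid synthesis were in neither class for 18 of 22 tested, against 23.4% of all tested genes, with siControl library 3 lowest in the genes named here. SCD, the stearoyl-CoA desaturase, was at 5779, 6677 and 230.4 CPM in the siControl libraries and 958, 886 and 929.6 CPM in the siIQGAP3 libraries. SQLE, the squalene epoxidase of sterol synthesis, was at 1416, 1591 and 57.7 CPM in siControl and 178, 176 and 176 CPM in siIQGAP3. INSIG1, which retains the sterol sensor in the endoplasmic reticulum, was at 379, 418 and 17.5 CPM in siControl libraries 1 to 3 and 122, 124 and 120.4 CPM in siIQGAP3. In all 3 genes the siIQGAP3 libraries lay between siControl library 3 and siControl libraries 1 and 2. With all controls 3 members were higher and 3 lower (median log2 fold change -0.25), while against siControl library 3 alone the median was 1.56. INSIG1 went from a log2 fold change of -1.154 (adjusted p = 0.215) to 2.80.

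Of the mesenchymal and matrix list, COL3A1 and DCN in neither class showed the same order of libraries, whereas in 9 of its 28 genes siControl library 3 lay with siIQGAP3, 7 above and 2 below siControl libraries 1 and 2. COL3A1, the collagen III chain, was at 2446, 2728 and 3.52 CPM in the siControl libraries and 121, 118 and 123 CPM in the siIQGAP3 libraries. DCN, the proteoglycan decorin, was at 237, 275 and 0 CPM in siControl and 0.548, 0.202 and 0.495 CPM in siIQGAP3. Among interferon-stimulated genes siControl library 3 lay with siIQGAP3 in 8 of 29, 6 above and 2 below siControl libraries 1 and 2. Over all tested genes 23.4% were in this class, so the count of this list is near the share of all genes. MX1, an antiviral GTPase, was at 2.27, 1.87 and 22.9 CPM in siControl libraries 1 to 3 and 34.6, 36.3 and 34.0 CPM in siIQGAP3.

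A few genes with agreeing controls had 0 counts in all 3 siControl libraries. MMRN1, a platelet and endothelial matrix protein, was at 1.37, 1.097 and 1.35 CPM in siIQGAP3, at least 52.1-fold higher than the floor of 3 counts over the group. SERPINB2, the plasminogen activator inhibitor of the serpin B group, was at 0.877, 1.097 and 1.27 CPM, at least 44.3-fold higher. The genes of this paragraph were picked with their values in view.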
